A study of Oryza sativa with 8 samples.

Results

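Transcript levels in Pokkali rice seedlings after 8 h of salt were set against those in Pokkali seedlings at 0 h, with 2 arrays in each group, 4 of the 8 arrays of the series, chosen by line and time in the sample titles. Pokkali is a salt-tolerant indica landrace of Oryza sativa. The plants were 14 days old, had grown in a greenhouse in natural light and were sampled as whole seedlings, so that leaf, stem and root RNA came together. The 8 h group stood in 250 mM NaCl for that time, and the 0 h group was taken at the start. The other 4 arrays held the japonica line Nipponbare, the line of the rice reference genome, with 2 arrays at 8 h and 2 at 0 h of the same treatment. They entered the fit because all groups share one estimate of the spread, and their values appear here only beside those of Pokkali. The labels call the 2 samples of a group biological replicates and do not say how many seedlings each one held. No group stood for 8 h without salt, so salt and the time of day cannot be told apart in any change below.

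Salt reaches a rice plant as a shortage of water and then as sodium ions in the shoot. Water shortage raises abscisic acid, a hormone that binds PYL receptors. The bound receptors hold back clade A protein phosphatases 2C, which frees SnRK2 kinases (SAPK in rice) to switch on bZIP transcription factors and, through them, genes for proteins that protect drying cells. Sodium is kept out of leaf cells by HKT transporters, some of which take it back from the xylem, and by sodium/proton antiporters that drive it into the vacuole or out of the cell with the gradient made by proton pumps. Photosynthesis, nitrogen assimilation and growth are known to be reduced in salt-stressed rice leaves and roots.

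Each array was read in 1 colour. Levels are given as log2 intensity minus the 75th percentile of that array, called the relative level here, so that 0 is the 75th percentile and a step of 1 is a doubling. Levels of different genes are not set against each other, because each probe has its own brightness. Each of 45411 loci was tested with limma's moderated test. A locus passed, and is here called, where its p, adjusted by Benjamini and Hochberg's method for the whole set, was below 0.05. A call is named held where the locus passed with the same sign in the fit as reported and under each of 19 other settings that tested it (other scalings, background corrections and filters, and fits without one array). A stricter filter on dim probes tested fewer loci, so a gene dark at 0 h can be held without it. Gene names rest on published locus identifiers and not on an annotation of the array, so each name is given with its locus. Probe sequences were not used here. On each array 81.0% to 85.5% of spots stood well above background. The 8 h replicates differed from each other with an SD over loci of 0.45 log2 units, the 0 h replicates with an SD of 0.63, and 1652 loci at 8 h against 3871 loci at 0 h lay over 2-fold apart between the replicates of a group. For leaf tissue, 12 of 12 light harvesting antenna loci and 13 of 13 Calvin cycle loci were well above background on all 4 Pokkali arrays. For root tissue it was 5 of 7 marker loci, and for dividing cells 6 of 7. The 3 glutelin loci that mark endosperm were also above background on all 4 arrays, with a summed linear signal of 0.994 to 1.14 times the 75th percentile at 8 h and 0.330 to 0.807 times at 0 h. In RNA from whole seedlings, fewer cells of a type and less RNA per cell cannot be told apart.

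At 8 h, 12298 of 45411 loci (27.1%) differed from 0 h in Pokkali: 6850 were higher (15.1%) and 5448 lower (12.0%). Held calls numbered 3786 (8.34% of the loci tested, and 30.8% of the calls), 2062 of them higher and 1724 lower. The median log2 change of all loci was 0.07, and the median fold of the called loci was 2.37. Changes of at least 4-fold were called at 1322 higher and 1170 lower loci, and changes of at least 16-fold at 192 higher and 77 lower loci. Without scaling between arrays the median of all loci moved by -0.15, and the split became 4710 higher and 6382 lower loci. Without 8 h replicate 2 the calls numbered 4761, without 8 h replicate 1 they numbered 7002, and without 0 h replicate 2 6865. Of 415 measured loci in 47 gene lists, 92 were higher and 113 lower, and 101 of these calls were held. Each count of list members below is to be read against the shares over all loci, 15.1% higher and 12.0% lower, which are not repeated for every list. For held calls the share is 8.34%.

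**Figure D1:**
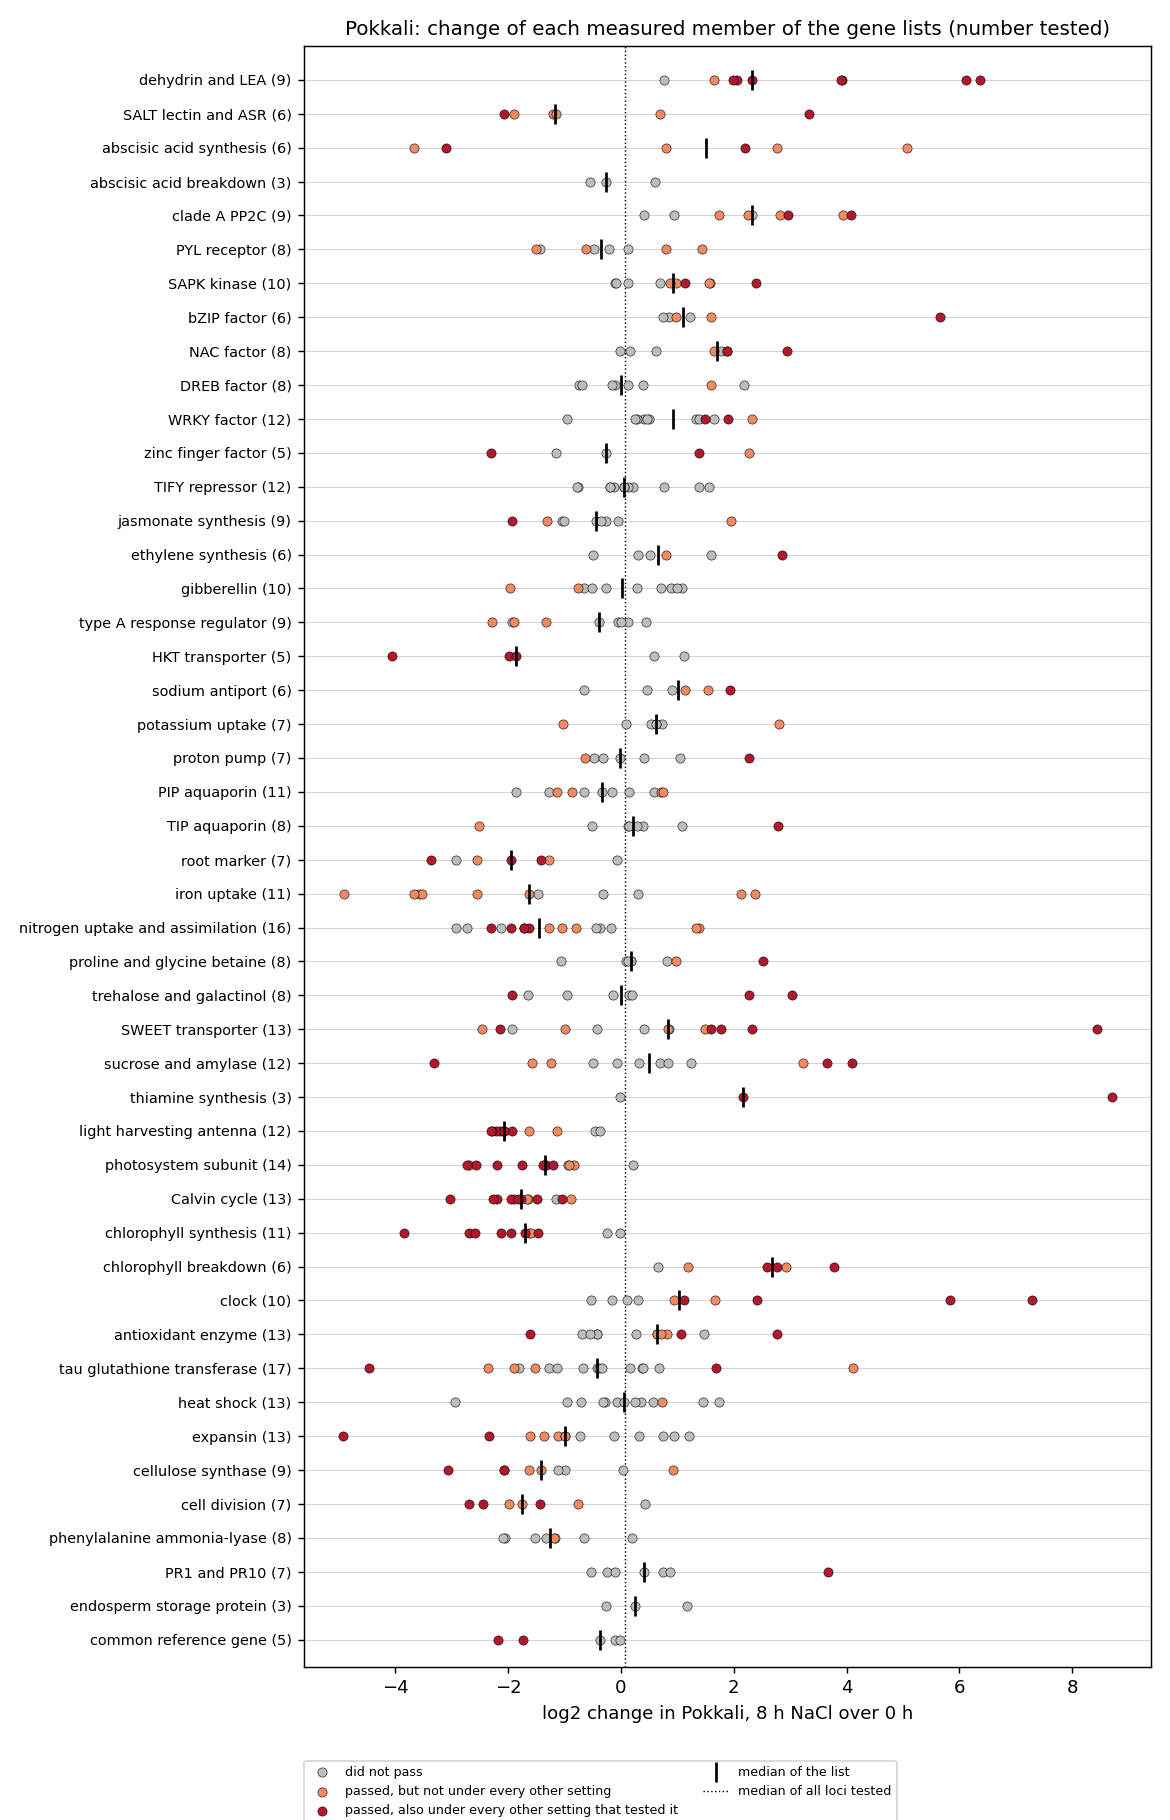
Log2 change in Pokkali (8 h NaCl over 0 h) on the x axis for each tested member of the 47 gene lists on the y axis, with the number of members tested in brackets. Dark points passed also under every other setting that tested them, light orange points passed but not under every other setting, grey points did not pass, bars are list medians and the dotted line is the median of all loci (0.07). The medians of chlorophyll synthesis, photosystem subunits and the Calvin cycle lie left of that line, and those of dehydrins, phosphatases 2C and chlorophyll breakdown right of it.

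Most of the phosphatases that hold abscisic acid signalling in check were higher after salt. Of 9 clade A loci, 6 rose and none fell, with a median log2 change of 2.31 against 0.07 over all loci, and 2 of the calls were held. PP2C68 (LOC_Os09g15670) had relative levels of 3.71 and 3.91 at 8 h, against -0.75 and 0.20 at 0 h. It rose by 4.08 on the log2 scale (SE 0.38, n = 2 arrays per group, limma adjusted p = 0.00196), a 16.9-fold rise. PP2C49 (LOC_Os05g46040) stood at 2.22 and 2.49 at 8 h, against -0.63 and -0.58 at 0 h, with each pair of replicates close together, and rose 7.76-fold (SE 0.17 log2 units, adjusted p = 0.00112). In both genes the lowest 8 h array lay above the highest 0 h array, which goes with their choice as held calls and is no test. PP2C06 (LOC_Os01g40094) and PP2C08 (LOC_Os01g46760) rose by 2.81 and 2.24 on the log2 scale, calls that ended without 8 h replicate 2 (adjusted p = 0.0546 and 0.0549). The number of risen phosphatases was 2 to 5 without one Pokkali array, lowest without 8 h replicate 2. The 0 h replicates of this list lay apart: replicate 2 exceeded replicate 1 by 0.97 log2 units in the mean over the 9 loci, against 0.25 at 8 h, and 4 of the 9 loci were over 2-fold apart at 0 h.

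Kinases, receptors and bZIP factors of the same pathway had lower medians (0.92, -0.34 and 1.10 on the log2 scale). Of 10 SAPK kinase loci, which encode the SnRK2 kinases, 6 rose and none fell, against 15.1% and 12.0% of all loci. The count of rises was 2 to 6 without one Pokkali array, lowest without 8 h replicate 2. SAPK1 (LOC_Os03g27280) was at -0.14 and 0.01 at 8 h, against -2.40 and -2.53 at 0 h, a rise of 2.40 (SE 0.16, adjusted p = 0.00137). SAPK3 (LOC_Os10g41490) was at 1.51 and 1.81 at 8 h, against 0.51 and 0.54 at 0 h, a rise of 1.13 (SE 0.16, adjusted p = 0.00489). These were the 2 held calls among the kinases. The 8 PYL receptor loci were divided, with 2 higher, 2 lower and no held call. The receptor locus with the smallest p, LOC_Os03g18600, stood at -0.04 and -0.04 at 8 h, against 1.70 and 1.23 at 0 h and fell by 1.50 (adjusted p = 0.00869), a call that ended without 8 h replicate 2 (0.0529). No receptor call of either direction was left in that fit, and without 8 h replicate 1 or without 0 h replicate 2 there was 1, lower in each case. Of 6 bZIP factors 3 rose (1 without 8 h replicate 2). ABI5 (LOC_Os01g64000), which acts on genes with abscisic acid response elements, had relative levels of 0.61 and 0.95 at 8 h, against -4.51 and -5.22 at 0 h. Its rise of 5.65 (SE 0.74, adjusted p = 0.00436) was held. TRAB1 (LOC_Os08g36790) rose by 1.60 and BZIP46 (LOC_Os06g10880) by 0.97. Both calls ended without 8 h replicate 2 (adjusted p = 0.0915 and 0.091) and without 0 h replicate 2 (0.0519 and 0.0717).

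Genes for the synthesis of abscisic acid went in both directions. The NCED enzymes cleave carotenoids, the step that commits carbon to the hormone. NCED5 (LOC_Os12g42280) was at 2.70 and 2.57 at 8 h, against 0.52 and 0.35 at 0 h, and its rise of 2.20 (SE 0.18, adjusted p = 0.00172) was held. NCED1 (LOC_Os02g47510) was at 1.53 and 2.14 at 8 h, against 4.91 and 4.98 at 0 h, and its fall of 3.11 (SE 0.37, adjusted p = 0.00357) was held too. NCED4 (LOC_Os07g05940) stood at 6.66 and 7.26 at 8 h, against 0.61 and 3.18 at 0 h, so that both 8 h arrays lay above both 0 h arrays while the 0 h arrays were 2.57 log2 units apart. Its call (adjusted p = 0.0231) ended without either 8 h replicate and without 0 h replicate 1, with an adjusted p of up to 0.116. In the list of 6, 4 were higher and 2 lower, and the risen members numbered 1 to 3 without one Pokkali array, lowest without 0 h replicate 1 or 8 h replicate 2. The 3 hydroxylases that break the hormone down did not pass. For ABA8OX1 (LOC_Os02g47470) the 0 h arrays, at -3.59 and -0.78, lay on both sides of the 8 h arrays, at -2.68 and -2.78. The same held for ABA8OX3 (LOC_Os09g28390), with -1.89 and -1.79 at 8 h, against -2.66 and -0.49 at 0 h. ABA8OX2 (LOC_Os08g36860) was at 0.16 and 0.26 at 8 h, against -0.50 and -0.27 at 0 h (log2 change 0.60, adjusted p = 0.0623) and passed with the normexp background correction (0.0475).

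Proteins that protect cells from drying were among the most raised genes. Of 9 dehydrin and late embryogenesis abundant (LEA) loci 8 rose, 7 of them as held calls, with a median log2 change of 2.33, and the count was 7 to 8 without one Pokkali array. The dehydrin RAB16C (LOC_Os11g26760) was at 4.03 and 3.35 at 8 h, against -2.77 and -2.07 at 0 h and rose 68.9-fold (SE 0.35 log2 units, adjusted p = 0.00113). Its neighbour RAB16A (LOC_Os11g26790) was not well above background on either 0 h array and was at least 9.82-fold higher at 8 h (adjusted p = 0.00273). The RAB16 genes are similar copies in a row on chromosome 11, so signal shared between their probes is uncertain. LEA3-2 (LOC_Os03g20680), a group 3 LEA protein, was at 1.30 and 1.15 at 8 h, against -2.02 and -3.33 at 0 h and rose by 3.90 (SE 0.55, adjusted p = 0.00517). WSI18 (LOC_Os01g50910), first known as a gene induced by water stress, was at 4.62 and 4.46 at 8 h, against 2.45 and 1.97 at 0 h and rose by 2.33 (SE 0.19, adjusted p = 0.00172). EM1 (LOC_Os05g28210), a seed LEA protein of the Em kind, was at 1.62 and 1.62 at 8 h, against -0.43 and -0.30 at 0 h and rose by 1.99 (SE 0.19, adjusted p = 0.00201). For a locus above background in both groups LEA3 (LOC_Os05g46480) showed the largest rise of the list, at 6.30 and 6.88 at 8 h, against 0.74 and -0.30 at 0 h, or 6.37 on the log2 scale (SE 0.73, adjusted p = 0.00314).

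The ASR proteins, which carry the names of abscisic acid, stress and ripening, did not move with the LEA genes. Of 5 ASR loci, 4 were lower and 1 higher. The ASR locus LOC_Os01g72900 stood at 0.46 and 0.17 at 8 h, against 2.57 and 2.19 at 0 h and fell by 2.06 (SE 0.21, adjusted p = 0.00228), a held call. Next to it, LOC_Os01g72910 was at 1.94 and 1.72 at 8 h, against 4.10 and 3.35 at 0 h and fell by 1.90 (adjusted p = 0.00708), a call that ended without 8 h replicate 2 (0.0501). The locus LOC_Os01g73250 was at -0.83 and -0.88 at 8 h, against 0.55 and 0.04 at 0 h, and its call (adjusted p = 0.0118) ended without either 8 h replicate and with the brightest probe alone (0.18). The ASR locus on chromosome 11, LOC_Os11g06720, was at 9.14 and 9.10 at 8 h, against 8.48 and 8.38 at 0 h, a small rise of 0.69 (adjusted p = 0.013), a call that ended under 5 of the 19 other settings, among them the fits without either 8 h replicate (0.0596 and 0.0639). It was named after its values were seen, as the one riser. The lectin SALT (LOC_Os01g24710), which stands in the same list, was at -2.82 and -2.29 at 8 h, against -6.06 and -5.71 at 0 h, above background on both 8 h arrays and on 1 of the 0 h arrays, and rose (adjusted p = 0.00321), a held call. Its fitted log2 change of 3.33 (SE 0.38) rests in part on a 0 h value that was not above background. Fallen members of the list numbered 1 to 3 without one Pokkali array, lowest without 8 h replicate 2.

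Among other transcription factors, held rises were found for NAC, WRKY and zinc finger genes. NAC10 (LOC_Os11g03300) was at 5.69 and 5.79 at 8 h, against 2.89 and 2.70 at 0 h and rose 7.71-fold (SE 0.26 log2 units, adjusted p = 0.00187). A second NAC gene, NAC5 (LOC_Os11g08210) was at 3.31 and 3.23 at 8 h, against 1.32 and 1.46 at 0 h and rose by 1.88 on the log2 scale (adjusted p = 0.00277). Of 8 NAC loci 4 rose, with a count of 2 to 3 without one Pokkali array, lowest without 8 h replicate 2. NAP (LOC_Os03g21060), known in rice as a promoter of leaf senescence, rose by 1.88, a call that ended without 8 h replicate 2 (0.0902) and without 0 h replicate 2 (0.0597). WRKY72 (LOC_Os11g29870) was at 0.71 and 1.17 at 8 h, against -1.05 and -0.86 at 0 h, a rise of 1.89 (SE 0.27, adjusted p = 0.00553). WRKY11 (LOC_Os01g43650), at 1.57 and 2.05 at 8 h, against 0.13 and 0.51 at 0 h, rose by 1.49 (SE 0.23, adjusted p = 0.00727). Those 2 were the held calls among 12 WRKY loci, of which 3 rose, against 15.1% of all loci. The zinc finger gene ZFP182 (LOC_Os03g60560), which raises salt tolerance when overexpressed in rice, was at 0.74 and 1.05 at 8 h, against -0.49 and -0.51 at 0 h and rose by 1.39 (SE 0.18, adjusted p = 0.00414). DST (LOC_Os03g57240), a zinc finger factor whose loss closes stomata and raises drought and salt tolerance, went the other way. It was at -2.25 and -2.32 at 8 h, against 0.07 and -0.02 at 0 h and fell by 2.31 (SE 0.23, adjusted p = 0.00239), a held call.

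Several lists of stress genes had 0 h replicates far apart and few calls. Over all loci 15.1% were higher and 12.0% lower. The 1 rise among 8 DREB loci and the 1 fall among 8 phenylalanine ammonia-lyase loci were near those shares. For 8 DREB loci the mean on 0 h replicate 2 exceeded that on 0 h replicate 1 by 2.01 log2 units, while the 8 h replicates differed by -0.23. DREB1G (LOC_Os02g45450), named as an example after its values were seen, was at -1.09 and -0.95 at 8 h, against -2.96 and 2.31 at 0 h, so the 0 h arrays enclosed the 8 h arrays. Of the 8, 1 locus rose, DREB2B (LOC_Os05g27930), at -2.48 and -2.81 at 8 h, against -3.86 and -4.62 at 0 h (log2 change 1.59, adjusted p = 0.0342), a call that ended under 6 of the 19 other settings. None of the 12 TIFY repressors of jasmonate signalling passed. Their mean gap at 0 h was 1.38 log2 units, against 0.25 at 8 h. TIFY11C (LOC_Os03g08320), the one with the smallest p, was at -4.09 and -3.43 at 8 h, against -6.66 and -3.98 at 0 h (adjusted p = 0.342), and was well above background on 1 of the 0 h arrays. For 8 phenylalanine ammonia-lyase loci, the entry to phenylpropanoids, the gap at 0 h was 1.51, and 1 locus fell (LOC_Os04g43760, log2 change -1.18, adjusted p = 0.0341, ended under 6 alternatives). With 0 h replicate 1 of both lines left out, a fit chosen after the data were seen, 4 DREB, 3 TIFY and 6 ammonia-lyase loci were lower. With 0 h replicate 2 of both lines left out, 4 DREB and 4 TIFY loci were higher and 2 ammonia-lyase loci lower. The direction of the DREB and TIFY lists therefore depended on which 0 h array was used. Over all loci, 640 were more than 4-fold apart between the 0 h replicates, and 10.2% of those passed, against 27.1% of all loci.

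**Figure D2:**
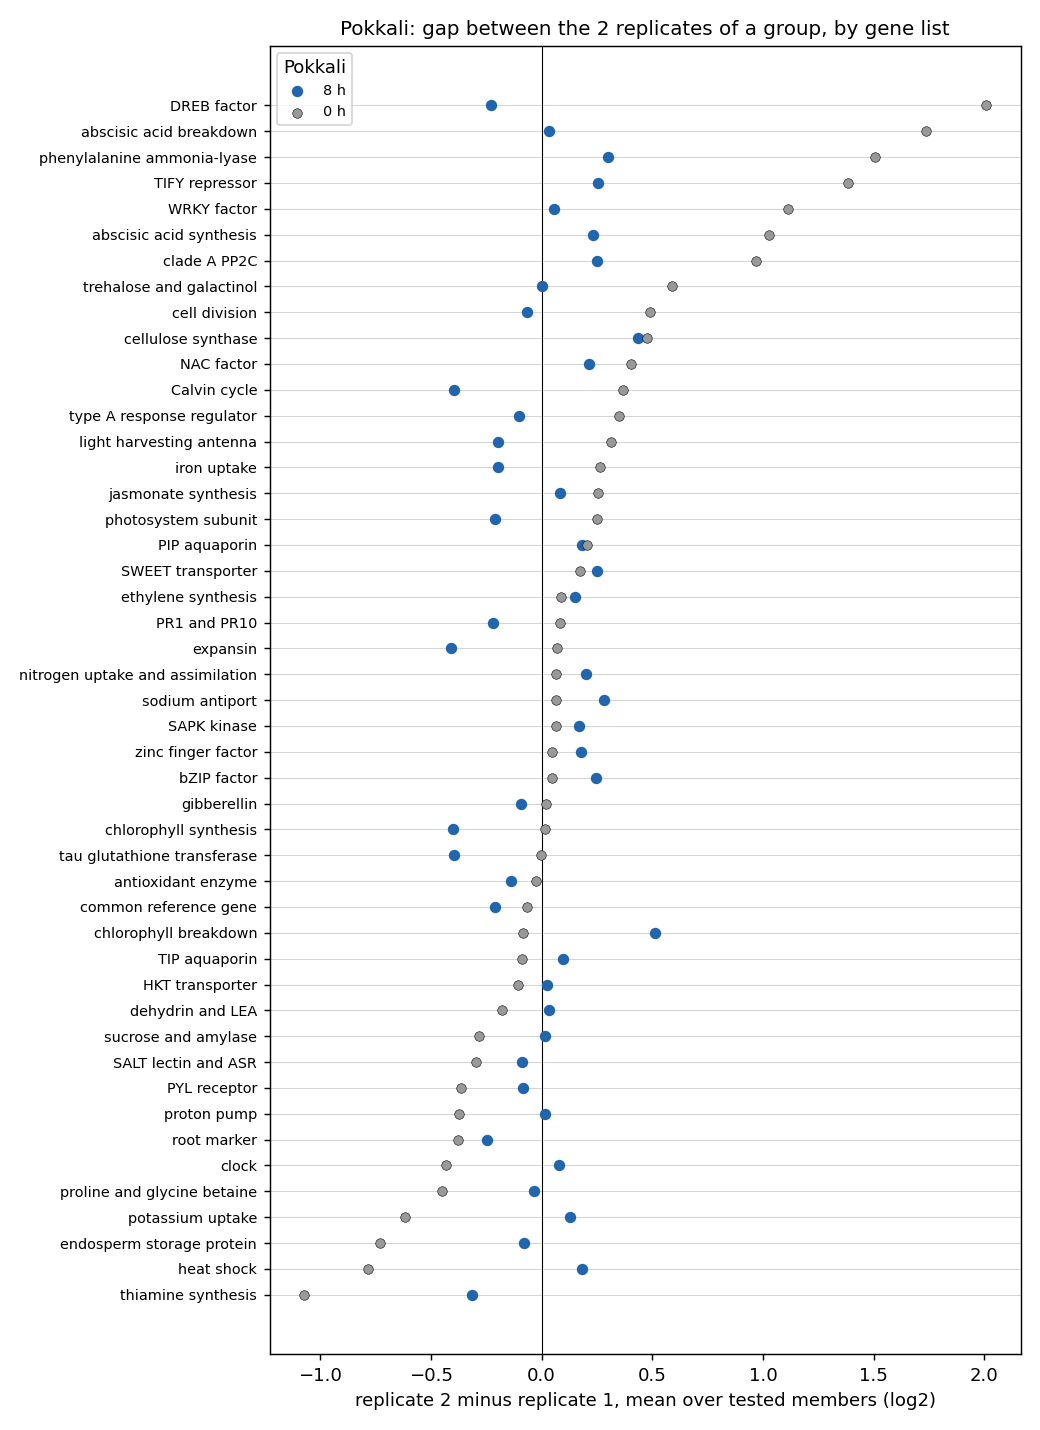
Gap between the 2 Pokkali replicates of a group, as replicate 2 minus replicate 1 of the mean relative level over the tested members of each list (x axis, log2 units; y axis, gene lists). Blue points are the 8 h group and grey points the 0 h group. Gaps at 0 h reach 2.01 for DREB factors and -1.07 for thiamine synthesis, while those at 8 h stay between -0.41 and 0.51.

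Held calls numbered 1 among 9 jasmonate synthesis loci and 1 among 6 ethylene synthesis loci. There were 0 among 10 measured gibberellin loci and 0 among 9 cytokinin response regulators. Over all loci tested 8.34% were held, 15.1% were higher and 12.0% lower, so such small lists are not shown to differ from all loci in held calls. OPR1 (LOC_Os06g11290), an oxophytodienoate reductase, had relative levels of 2.24 and 1.95 at 8 h and 4.03 on 0 h replicate 1. Its spot on 0 h replicate 2 was an outlier and the fit drops that array, which left a fall of 1.94 (SE 0.24, adjusted p = 0.0057) against a single 0 h array, assumed to vary like the other groups. JAR1 (LOC_Os05g50890), which joins jasmonate to isoleucine, was at 0.86 and 1.16 at 8 h, against 2.22 and 2.42 at 0 h, and its call (log2 change -1.31, adjusted p = 0.0139) ended without either 8 h replicate and without 0 h replicate 2. ACS1 (LOC_Os03g51740), an enzyme that makes the ethylene precursor, was at 1.17 and 1.52 at 8 h, against -1.73 and -1.31 at 0 h and rose by 2.86 (SE 0.35, adjusted p = 0.00373). It was the only held call among 6 ethylene synthesis loci, of which 2 rose. GA20OX1 (LOC_Os03g63970), of gibberellin synthesis, was at -3.96 and -4.15 at 8 h, against -1.94 and -2.21 at 0 h and fell by 1.97 (adjusted p = 0.0097), a call that ended without 8 h replicate 2 (0.0625). Of 10 measured gibberellin loci 2 fell, against none without 8 h replicate 2. Of 9 type A response regulators, which dampen cytokinin signalling, 3 fell, with counts of 1 to 3 without one Pokkali array, lowest without 8 h replicate 1 or 8 h replicate 2 and no held call. The regulator RR1 (LOC_Os04g36070) was at -3.34 and -2.69 at 8 h, against -1.99 and -1.39 at 0 h, and RR2 (LOC_Os02g35180) was at -4.87 and -4.51 at 8 h, against -3.32 and -2.29 at 0 h.

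Sodium transporters of the HKT family that passed were all lower. HKT1;3 (LOC_Os02g07830) was at -4.54 and -4.44 at 8 h, against -0.78 and -0.09 at 0 h and was 16.6-fold lower after salt (log2 change -4.05 with SE 0.55, adjusted p = 0.00485). HKT2;3 (LOC_Os01g34850) was at -2.68 and -2.62 at 8 h, against -0.60 and -0.72 at 0 h and fell by 1.99 (adjusted p = 0.00172). HKT2;4 (LOC_Os06g48800) was at -3.12 and -2.93 at 8 h, against -1.09 and -1.23 at 0 h and fell by 1.86 (adjusted p = 0.00383). The last 2 are close copies, so their probes may share signal. All 3 calls were held, and the count stayed at 3 without any one of the Pokkali arrays. HKT1;1 (LOC_Os04g51820), with -1.61 and -1.52 at 8 h, against -2.68 and -1.61 at 0 h, did not pass (adjusted p = 0.494). For HKT2;1 (LOC_Os06g48810) the 0 h arrays, at -0.96 and -2.98, were over 4-fold apart, and it did not pass either. HKT1;5 (LOC_Os01g20160), which takes sodium from the xylem in roots and is known from the salt tolerance locus on chromosome 1 for which Pokkali is a donor, was not well above background on both arrays of any group and was not tested. The same was true of HKT1;4 (LOC_Os04g51830). The root marker list fell with these transporters, and its part in their falls was not tested.

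Antiporters and the pumps that drive them had 1 held rise in each list. Of 7 pump loci 1 was higher and 1 lower, near the shares over all loci of 15.1% and 12.0%. The same counts were found among 7 potassium uptake loci. NHX1 (LOC_Os07g47100), the vacuolar sodium/proton antiporter, was at 3.96 and 4.29 at 8 h, against 2.36 and 2.02 at 0 h. NHX3 (LOC_Os11g42790) was at 2.82 and 3.18 at 8 h, against 1.65 and 1.27 at 0 h and rose by 1.54 (adjusted p = 0.00826), a call that ended without 8 h replicate 2 (0.0555). In the antiport list 3 of 6 loci rose, with a count of 2 to 4 without one Pokkali array, lowest without 8 h replicate 2. OSA1 (LOC_Os03g48310), a plasma membrane proton pump, was at 1.73 and 2.27 at 8 h, against -0.03 and -0.50 at 0 h and rose by 2.27 (SE 0.27, adjusted p = 0.00349), the one held call among 7 pump loci. OSA3 (LOC_Os12g44150), another pump of that family, was at 0.81 and 0.97 at 8 h, against 1.58 and 1.47 at 0 h and fell by 0.64 (adjusted p = 0.039), a call that ended under 9 of 19 alternatives. Of 7 potassium uptake loci, the channel AKT1 (LOC_Os01g45990) was lower, at 0.60 and 0.57 at 8 h, against 1.94 and 1.30 at 0 h, and the transporter HAK10 (LOC_Os06g42030) higher, at -3.10 and -2.70 at 8 h, against -4.99 and -6.41 at 0 h, where it was well above background on 1 of the 0 h arrays. Both calls ended without 8 h replicate 2 (adjusted p = 0.0953 and 0.0737), and that of AKT1 also without 8 h replicate 1 (0.0772) and with the Pokkali arrays alone (0.0618).

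The largest changes among the aquaporin loci were at 2 tonoplast (TIP) loci. Of 8 TIP loci 1 rose and 1 fell, near the shares over all loci (15.1% higher, 12.0% lower). The TIP4 aquaporin LOC_Os01g13130 was at 0.93 and 0.94 at 8 h, against -1.45 and -2.26 at 0 h and rose by 2.79 (SE 0.40, adjusted p = 0.00565), a held call. TIP2;1 (LOC_Os02g44080), known as a root aquaporin, was at -3.40 and -3.25 at 8 h, against -1.42 and -0.20 at 0 h and fell by 2.51 (adjusted p = 0.0131), a call that ended without either 8 h replicate. No other member of the 8 TIP loci passed. Of 11 plasma membrane (PIP) loci, 2 rose and 2 fell, with no held call and no call left without 8 h replicate 2. The 2 rises and 2 falls of this list were also near the shares over all loci. PIP1;2 (LOC_Os04g47220) was at 2.93 and 2.87 at 8 h, against 2.22 and 2.11 at 0 h and PIP2;6 (LOC_Os04g16450) at -1.32 and -1.53 at 8 h, against -0.29 and -0.28 at 0 h, log2 changes of 0.74 and -1.14.

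Some genes of sugar transport and sugar release changed by large factors. The list medians were 0.83 (SWEET) and 0.50 (sucrose and amylase) on the log2 scale, and members of both lists rose and fell. SWEET15 (LOC_Os02g30910), a sugar exporter whose Arabidopsis relative is known from senescing leaves, had relative levels of 5.71 and 5.87 at 8 h, against -2.66 and -2.62 at 0 h. It rose by 8.43 (SE 0.22, adjusted p = 0.000404), a 345-fold rise, with replicates of both groups within 0.16 log2 units of each other. Of 13 SWEET loci, 6 rose and 3 fell, and 4 rises and 1 fall were held. SWEET16 (LOC_Os03g22200) was at 1.24 and 0.96 at 8 h, against -1.38 and -1.05 at 0 h, a rise of 2.32 (SE 0.25, adjusted p = 0.00267). SWEET1A (LOC_Os01g65880) was at 3.96 and 3.83 at 8 h, against 2.49 and 1.74 at 0 h, a rise of 1.78 (SE 0.28, adjusted p = 0.0071). SWEET12 (LOC_Os03g22590) was not well above background on either 0 h array and was at least 2.31-fold higher at 8 h (adjusted p = 0.006). SWEET11 (LOC_Os08g42350), a sucrose exporter, went the other way, at -0.68 and -0.14 at 8 h, against 1.75 and 1.70 at 0 h, and fell by 2.14 (SE 0.24, adjusted p = 0.00302). Fallen SWEET loci numbered 1 to 3 without one Pokkali array, lowest without 0 h replicate 2.

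Of the alpha-amylases, which release sugar from starch, RAMY3D and RAMY3A passed. RAMY3D (LOC_Os08g36910), an amylase known to be raised in sugar-starved rice cells, was at 5.07 and 5.41 at 8 h, against 2.12 and 1.05 at 0 h and rose 12.5-fold (SE 0.51 log2 units, adjusted p = 0.00524). RAMY3A (LOC_Os09g28400) was not well above background at 0 h and was at least 11.4-fold higher at 8 h (adjusted p = 0.00414). CIN2 (LOC_Os04g33740), a cell wall invertase, was at -3.18 and -4.13 at 8 h, against -0.31 and -0.38 at 0 h and fell by 3.31 (SE 0.31, adjusted p = 0.00204). These were the 3 held calls among 12 measured loci, of which 3 rose and 3 fell, against 15.1% and 12.0% of all loci. The sucrose synthase SUS4 (LOC_Os03g22120) was at 6.81 and 6.79 at 8 h, against 4.34 and 2.78 at 0 h and rose by 3.24 (adjusted p = 0.00784), and SUS1 (LOC_Os03g28330), of the same enzyme family, was at 0.88 and 0.42 at 8 h, against 1.75 and 2.02 at 0 h and fell by 1.24 (adjusted p = 0.00942). Both calls ended without 8 h replicate 2 (adjusted p = 0.0501 and 0.0525), where 2 loci of the list rose and 1 fell.

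Among genes for the metabolism of sugars and amino acids that act as protectants, some for trehalose and galactinol had held calls. In the list for proline and glycine betaine 1 of 8 measured loci did, the aminotransferase OAT. The compounds themselves were not measured. TRE1 (LOC_Os10g37660), the trehalase that splits trehalose, was at 2.48 and 2.11 at 8 h, against -0.27 and -1.20 at 0 h and rose by 3.03 (SE 0.34, adjusted p = 0.00302). TPP2 (LOC_Os10g40550), a phosphatase that makes it, was at -1.00 and -0.67 at 8 h, against 0.98 and 1.21 at 0 h and fell by 1.93 (SE 0.27, adjusted p = 0.00542). GOLS2 (LOC_Os07g48830), the galactinol synthase at the start of raffinose synthesis, was at 1.08 and 1.21 at 8 h, against -1.44 and -0.79 at 0 h and rose by 2.27 (SE 0.26, adjusted p = 0.00314). The other 5 loci of this list did not pass. Over all loci 15.1% were higher and 12.0% lower. OAT (LOC_Os03g44150), ornithine aminotransferase, was at 4.11 and 4.46 at 8 h, against 2.24 and 1.32 at 0 h and rose by 2.51 (SE 0.36, adjusted p = 0.00559). P5CS1 (LOC_Os05g38150), of proline synthesis, was at -0.63 and -0.74 at 8 h, against -1.80 and -1.53 at 0 h, and its rise of 0.98 (adjusted p = 0.0112) ended without either 8 h replicate. The degrading enzyme PRODH (LOC_Os10g40360) was at 2.31 and 2.40 at 8 h, against 3.23 and 3.59 at 0 h and did not pass (adjusted p = 0.112).

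The thiamine list contained the largest held rise among loci above background in both groups. THI1 (LOC_Os07g34570), which makes the thiazole part of the vitamin, was at 8.57 and 8.42 at 8 h, against 1.08 and -1.51 at 0 h and rose 417-fold (log2 change 8.70, SE 0.96, adjusted p = 0.00294). Its 0 h arrays were 2.59 log2 units apart, and the lower 8 h array lay 7.34 log2 units above the higher of them. THIC (LOC_Os03g47610), which makes the pyrimidine part, was at 2.31 and 1.94 at 8 h, against 0.02 and -0.11 at 0 h and rose by 2.17 (SE 0.22, adjusted p = 0.00231). Both calls were held. The third locus of the list, LOC_Os12g09000, was at -0.59 and -1.03 at 8 h, against -0.55 and -1.05 at 0 h and did not pass.

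**Figure D3:**
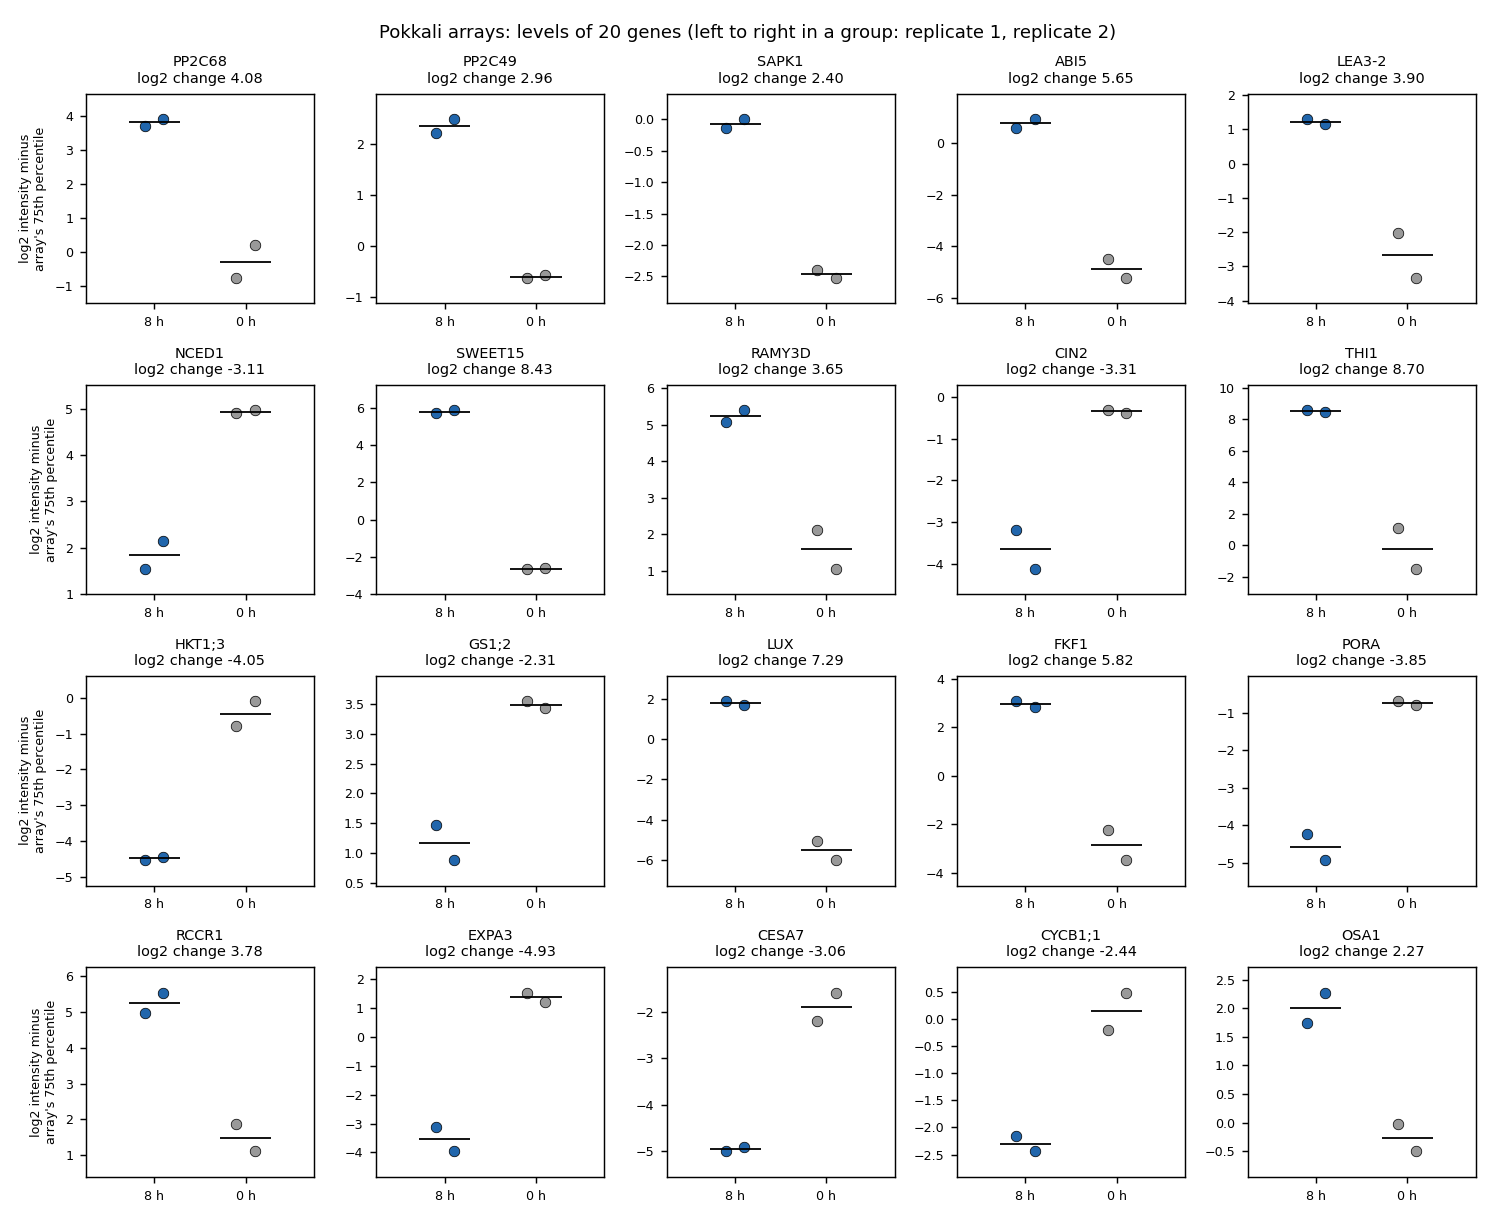
Relative level (log2 intensity minus the 75th percentile of the array, y axis) of 20 genes on the 4 Pokkali arrays, 8 h left (blue) and 0 h right (grey), each point one array and each line a group mean, with the log2 change above each panel and a y axis of its own in each. All 20 genes were picked from held calls, so the gap between the groups in the panels goes with that choice and is no test. Log2 changes run from 8.70 (THI1) and 8.43 (SWEET15) to -4.93 (EXPA3). LUX was well above background on 1 of its 0 h arrays.

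Most members of 4 lists of photosynthesis genes were lower. The fallen members were 10 of 12 light harvesting antenna loci, 12 of 14 photosystem loci, 11 of 13 Calvin cycle loci and 9 of 11 chlorophyll synthesis loci, and no member of these lists rose, while 2 in each did not pass. The medians were -2.07, -1.35, -1.78 and -1.70 on the log2 scale, and held calls numbered 6, 7, 8 and 7. Without 8 h replicate 2 the counts of fallen loci were 7, 7, 8 and 7. GAPA (LOC_Os04g38600), the plastid glyceraldehyde phosphate dehydrogenase of the Calvin cycle, was at 3.66 and 3.24 at 8 h, against 6.27 and 6.67 at 0 h and fell by 3.02 (SE 0.28, adjusted p = 0.00194). Rubisco activase (RCA, LOC_Os11g47970) was at 6.51 and 6.90 at 8 h, against 8.63 and 9.17 at 0 h and fell by 2.20 (SE 0.27, adjusted p = 0.00384). Phosphoribulokinase (PRK, LOC_Os02g47020) was at 2.69 and 2.66 at 8 h, against 4.68 and 5.19 at 0 h and fell by 2.27 (SE 0.22, adjusted p = 0.00215). The Rubisco small subunit locus LOC_Os12g17600 fell by 1.95 (adjusted p = 0.00845). It lost its call only where 0 h replicate 2 of both lines was left out (0.0547), and small subunit genes are near copies whose probes may share signal. Of photosystem I, PSAN (LOC_Os12g08770) was at 1.71 and 1.53 at 8 h, against 4.16 and 4.54 at 0 h and PSAK (LOC_Os07g05480) at 2.03 and 1.61 at 8 h, against 4.20 and 4.58 at 0 h, falls of 2.73 and 2.57 (adjusted p = 0.0016 and 0.00262). The antenna protein LHCB6 (LOC_Os04g38410) was at 5.34 and 4.58 at 8 h, against 7.13 and 7.41 at 0 h and fell by 2.31 (adjusted p = 0.00516). These lists are also the markers of leaf tissue. Their summed linear signal was 424 to 613 (antenna) and 144 to 157 (Calvin cycle) times the 75th percentile at 8 h, against 1408 to 1659 and 578 to 821 at 0 h.

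Most genes for making chlorophyll fell, and most of those for breaking it down rose. PORA (LOC_Os04g58200), a protochlorophyllide reductase, was at -4.24 and -4.94 at 8 h, against -0.69 and -0.80 at 0 h and fell by 3.85 (SE 0.50, adjusted p = 0.00421), a 14.4-fold fall. CRD1 (LOC_Os01g17170), which closes the fifth ring, was at 0.54 and 0.65 at 8 h, against 2.82 and 3.74 at 0 h and fell by 2.69 (SE 0.36, adjusted p = 0.00443). CHLM (LOC_Os06g04150), a methyltransferase of the step before, was at -0.01 and -1.17 at 8 h, against 2.21 and 1.79 at 0 h and fell by 2.59 (adjusted p = 0.0088). PORB (LOC_Os10g35370) was at -1.45 and -1.85 at 8 h, against 0.62 and 0.32 at 0 h, a fall of 2.13 (adjusted p = 0.00468). HEMA1 (LOC_Os10g35840), at the entry to the pathway, was at 0.74 and 0.60 at 8 h, against 2.27 and 2.48 at 0 h, a fall of 1.70 (adjusted p = 0.00421). In the list of 6 breakdown genes 5 rose, 3 as held calls, with a median of 2.67, and the count was 3 to 4 without one Pokkali array, lowest without 8 h replicate 2. RCCR1 (LOC_Os10g25030), the red chlorophyll catabolite reductase, was at 4.98 and 5.55 at 8 h, against 1.86 and 1.10 at 0 h and rose 13.8-fold (SE 0.34 log2 units, adjusted p = 0.00194). PAO (LOC_Os03g05310), pheophorbide a oxygenase, was at 3.39 and 3.87 at 8 h, against 1.32 and 0.77 at 0 h and rose by 2.58 (SE 0.29, adjusted p = 0.003). NYC1 (LOC_Os01g12710), a chlorophyll b reductase, was at 1.07 and 1.51 at 8 h, against -1.35 and -1.59 at 0 h and rose by 2.76 (SE 0.24, adjusted p = 0.00185). SGR (LOC_Os09g36200), the stay-green protein, was at 4.60 and 5.45 at 8 h, against 1.83 and 2.37 at 0 h and rose by 2.93 (adjusted p = 0.0088), a call that ended without 8 h replicate 2 (0.0572).

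Clock genes that differ through the day were among the largest changes. LUX (LOC_Os01g74020), of the evening complex, was at 1.87 and 1.67 at 8 h, against -5.04 and -6.01 at 0 h and rose (adjusted p = 0.00449). It was well above background on both 8 h arrays and on 1 of the 0 h arrays, so its fitted log2 change of 7.29 (SE 0.97) rests in part on a value that was not above background. FKF1 (LOC_Os11g34460), a blue light receptor with an afternoon peak in Arabidopsis, was at 3.06 and 2.83 at 8 h, against -2.26 and -3.49 at 0 h and rose by 5.82 (SE 0.43, adjusted p = 0.00151). PRR1 (LOC_Os02g40510), the rice counterpart of the evening gene TOC1, was at 1.06 and 1.30 at 8 h, against -1.17 and -1.30 at 0 h and rose by 2.41 (SE 0.17, adjusted p = 0.0014). ELF3-2 (LOC_Os01g38530), another part of the evening complex, was at 2.53 and 2.52 at 8 h, against 1.36 and 1.43 at 0 h and rose by 1.13 (SE 0.14, adjusted p = 0.00398). All 4 calls were held. Of 10 measured clock loci 6 rose and none fell, with a count of 4 to 6 without one Pokkali array, lowest without 0 h replicate 2 or 8 h replicate 2. With no unsalted 8 h group, the share of any change in the other lists that goes with the hour cannot be told apart from that of salt.

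Part of the nitrogen list was lower at 8 h. Of 16 loci for the uptake and assimilation of nitrogen 8 fell, 2 rose and 6 did not pass, with a median of -1.45, and 5 falls were held. The count of falls was 5 to 7 without one Pokkali array, lowest without 8 h replicate 1 or 8 h replicate 2. GS1;2 (LOC_Os03g12290), a cytosolic glutamine synthetase of the root, was at 1.47 and 0.88 at 8 h, against 3.54 and 3.42 at 0 h and fell by 2.31 (SE 0.28, adjusted p = 0.00364). GS2 (LOC_Os04g56400), its plastid form in leaves, was at 0.56 and -0.07 at 8 h, against 1.89 and 2.02 at 0 h and fell by 1.71 (SE 0.25, adjusted p = 0.00555). NAR2.1 (LOC_Os02g38230), the partner protein that nitrate transporters need at the membrane, was at -2.65 and -2.35 at 8 h, against -0.61 and -0.50 at 0 h and fell by 1.95 (SE 0.30, adjusted p = 0.00666). Nitrite reductase (NIR, LOC_Os01g25484) was at 3.04 and 3.41 at 8 h, against 4.71 and 5.17 at 0 h and fell by 1.72 (SE 0.25, adjusted p = 0.00591). AMT1;1 (LOC_Os04g43070), an ammonium transporter, was at 2.21 and 2.27 at 8 h, against 3.56 and 4.18 at 0 h and fell by 1.63 (SE 0.24, adjusted p = 0.00574). The ferredoxin-dependent glutamate synthase FD-GOGAT (LOC_Os07g46460) was at 4.79 and 4.83 at 8 h, against 5.46 and 5.76 at 0 h and fell by 0.80 (adjusted p = 0.0136), a call that ended under 4 of the other settings.

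Of 7 root marker loci 5 fell and none rose, and 3 of the falls were held. The summed linear signal of the 7 was 1.71 to 1.87 times the 75th percentile at 8 h, against 11.1 to 15.4 times at 0 h. RCC3 alone made up most of the sum at 0 h, so the drop of the sum mainly repeats the fall of that gene. The mean relative level of the 7, where each locus counts alike, was -3.66 and -3.91 at 8 h, against -1.67 and -2.04 at 0 h. Of the 7, 5 were well above background on all 4 Pokkali arrays. The nitrate transporter NRT2.2 (LOC_Os02g02190), counted among the 5 falls, was not well above background on any Pokkali array. With the normexp background correction its log2 change was -0.09 and its call ended (adjusted p = 0.827). NAR2.1 stands in the nitrogen list too and IRT1 in the iron list, so the counts of these lists share loci. RCC3 (LOC_Os02g44310), a root-specific gene, was at 0.18 and -0.18 at 8 h, against 2.98 and 3.73 at 0 h and fell by 3.36 (SE 0.43, adjusted p = 0.00417). LSI1 (LOC_Os02g51110), the silicon channel of root cells, was at -1.44 and -1.15 at 8 h, against 0.11 and 0.12 at 0 h and fell by 1.41 (SE 0.17, adjusted p = 0.00333). The part of the root markers in the nitrogen, iron and transporter results was not tested. Iron genes gave 5 falls and 2 rises among 11 measured loci, none held, and the fallen members numbered 1 to 4 without one Pokkali array. IRT1 (LOC_Os03g46470), the iron transporter of the root surface, was not well above background at 8 h and was at least 1.97-fold lower than at 0 h (adjusted p = 0.00971), a call that ended with the normexp background correction (0.0791). FER2 (LOC_Os12g01530), a ferritin that stores iron, was at 2.20 and 2.41 at 8 h, against 0.71 and -0.85 at 0 h and rose by 2.38 (adjusted p = 0.0175), a call that ended without either 8 h replicate. Ferritin has a nearly identical copy on chromosome 11, so the 2 cannot be separated with certainty.

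Enzymes that remove reactive oxygen moved singly. CATB (LOC_Os06g51150), a catalase, was at -0.60 and -0.39 at 8 h, against -2.81 and -3.72 at 0 h and rose by 2.77 (SE 0.39, adjusted p = 0.00513). CATC (LOC_Os03g03910), the catalase of leaf peroxisomes, was at 5.39 and 5.36 at 8 h, against 6.84 and 7.13 at 0 h and fell by 1.61 (SE 0.16, adjusted p = 0.00221). SODCC2 (LOC_Os07g46990), a cytosolic superoxide dismutase, was at 3.66 and 3.56 at 8 h, against 2.58 and 2.50 at 0 h and rose by 1.07 (SE 0.13, adjusted p = 0.00396). These 3 calls were held. Of 13 loci in all, 5 rose and 1 fell, and the rises numbered 2 to 3 without one Pokkali array. Among 17 measured tau class glutathione transferases of the chromosome 10 cluster, 2 rose and 4 fell. Over all loci 15.1% were higher and 12.0% lower. LOC_Os10g38540 was at -3.69 and -4.45 at 8 h, against -0.16 and 0.94 at 0 h and fell by 4.46 (SE 0.59, adjusted p = 0.00434), and LOC_Os10g38350 was at 4.97 and 4.63 at 8 h, against 3.27 and 2.94 at 0 h and rose by 1.69 (SE 0.22, adjusted p = 0.00432). Both were held, while falls numbered 1 to 5 without one Pokkali array, lowest without 8 h replicate 2, and these tandem copies may share signal. Heat shock proteins and their factors were nearly without calls, with 1 of 13 higher (LOC_Os01g04380, log2 change 0.72, adjusted p = 0.0135, ended under 5 alternatives) and a median of 0.06. Of 7 loci of pathogenesis-related families 1 rose, near the share of 15.1% over all loci. It was the PR10 locus LOC_Os12g36860, not well above background at 0 h and at least 3.87-fold higher at 8 h (adjusted p = 0.00234), while its tandem neighbour PBZ1 (LOC_Os12g36880), at -2.56 and -1.57 at 8 h, against -3.05 and -2.56 at 0 h, did not pass.

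Falls outnumbered rises in 2 lists of wall genes. EXPA3 (LOC_Os05g19570), an expansin that loosens walls, was at -3.13 and -3.97 at 8 h, against 1.55 and 1.21 at 0 h and fell by 4.93 (SE 0.42, adjusted p = 0.00177), a 30.5-fold fall. EXPB3 (LOC_Os10g40720) was at 0.89 and 0.53 at 8 h, against 2.72 and 3.38 at 0 h and fell by 2.34 (SE 0.27, adjusted p = 0.00331). Of 13 expansin loci 7 fell, none rose and 6 did not pass, and the falls numbered 2 to 6 without one Pokkali array, lowest without 8 h replicate 2. In that last fit 2 expansins were higher. CESA7 (LOC_Os10g32980), a cellulose synthase of secondary walls, was at -5.01 and -4.91 at 8 h, against -2.20 and -1.59 at 0 h and fell by 3.06 (SE 0.28, adjusted p = 0.00194). CESA4 (LOC_Os01g54620), of the same complex, was at -1.29 and -1.12 at 8 h, against 0.60 and 1.15 at 0 h and fell by 2.08 (SE 0.23, adjusted p = 0.00282). CESA8 (LOC_Os07g10770), of primary walls, was at -2.72 and -2.29 at 8 h, against -1.17 and -0.57 at 0 h, and its fall of 1.64 (adjusted p = 0.00998) ended without 8 h replicate 1 (0.0537). Of 9 cellulose synthases 4 fell, 1 rose and 4 did not pass, with falls at 2 to 4 without one Pokkali array, lowest without 8 h replicate 1.

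Of 7 cell division loci 6 fell, with a median of -1.76 and 3 held calls, and the count was 4 to 6 without one Pokkali array. CYCB1;1 (LOC_Os01g59120), a mitotic cyclin, was at -2.16 and -2.44 at 8 h, against -0.20 and 0.49 at 0 h and fell by 2.44 (SE 0.28, adjusted p = 0.00315). CYCB2;1 (LOC_Os04g47580), a second mitotic cyclin, was at -1.88 and -2.09 at 8 h, against 0.28 and 1.12 at 0 h and fell by 2.69 (SE 0.32, adjusted p = 0.00349). CDKB1;1 (LOC_Os01g67160), a kinase of the plant mitotic cycle, was at 0.61 and 0.44 at 8 h, against 1.89 and 2.02 at 0 h and fell by 1.43 (SE 0.15, adjusted p = 0.00242). This list also marks dividing cells, and its summed linear signal was 2.93 to 3.22 times the 75th percentile at 8 h, against 7.42 to 10.1 times at 0 h.

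Of 5 genes commonly used to scale rice expression, 2 were lower at 8 h. ACT1 (LOC_Os03g50885), an actin, was at 1.30 and 1.31 at 8 h, against 3.37 and 3.59 at 0 h and fell by 2.17 (SE 0.18, adjusted p = 0.00168), a 4.51-fold fall. GAPC (LOC_Os04g40950), cytosolic glyceraldehyde phosphate dehydrogenase, was at 0.36 and -0.15 at 8 h, against 1.70 and 1.98 at 0 h and fell by 1.73 (SE 0.24, adjusted p = 0.00483). Both calls were held, also without scaling between arrays. EEF1A (LOC_Os03g08010), an elongation factor, was at 7.47 and 7.25 at 8 h, against 7.62 and 7.31 at 0 h, and UBQ5 (LOC_Os01g22490), a ubiquitin, at 0.74 and 0.16 at 8 h, against 1.08 and 0.55 at 0 h. Neither passed (adjusted p = 0.764 and 0.343).

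Over all loci, the largest held rises among loci above background on at least 1 array of each group were those of THI1 and SWEET15. The largest held falls were at LOC_Os09g24370 and LOC_Os07g22580, which carry no name in the files. LOC_Os09g24370 was at -0.88 and -0.29 at 8 h, against 5.75 and 6.50 at 0 h (log2 change -6.71, SE 0.59, adjusted p = 0.0018). LOC_Os07g22580 was at -4.97 and -5.91 at 8 h, against -0.13 and 0.94 at 0 h (log2 change -5.84, SE 0.56, adjusted p = 0.00214). It was well above background on 1 of the 8 h arrays, so the size of its change rests in part on a value that was not. A further 923 loci were above background on both 8 h arrays and on neither 0 h array, of which 589 passed as higher and 178 were held. The opposite pattern, above background on both 0 h arrays and on neither 8 h array, was found at 384 loci, of which 259 passed as lower and 57 were held. By chromosome, between 13.0% (chromosome 3) and 16.4% (chromosome 12) of the loci tested were higher and between 9.68% (chromosome 12) and 14.8% (chromosome 3) lower. Of the higher loci, 18.1% had a higher locus as their next tested neighbour, against 15.1% of all loci. Of the lower loci, 15.9% had a lower one next to them, against 12.0% of all loci. Among 616 called loci with 2 or more probes, the probes of 15 had changes of opposite sign and those of 59 differed by over 2-fold.

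Most loci called in Pokkali were also called in Nipponbare. Of the Pokkali calls, 63.6% were also called in Nipponbare with the same sign, which is 65.4% of the 11962 Nipponbare calls (26.3% of the loci tested), and 71 loci were called in both lines with opposite signs. The test of the difference, the change in Pokkali minus the change in Nipponbare, passed at 134 of 45411 loci (0.295%), with 78 above and 56 below 0. Both lines were called at 44 of the 134, in opposite directions at 31 of them. Pokkali alone was called at 27 and Nipponbare alone at 63. Of the 134, 27 were above background on no Pokkali array and 8 on no Nipponbare array. Without Pokkali 8 h replicate 1, and likewise without Pokkali 8 h replicate 2, no locus passed this test, although 4731 did so at an unadjusted p under 0.05 in the full fit. In the gene lists 1 locus passed, SWEET15. Its Pokkali values are given above. In Nipponbare it was at 2.60 and 3.14 at 8 h, against -2.17 and -1.88 at 0 h. The log2 change was 8.43 in Pokkali and 4.90 in Nipponbare, a difference of 3.53 (SE 0.31, adjusted p = 0.0285). No other list member is shown to differ between the lines in its change.

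**Figure D4:**
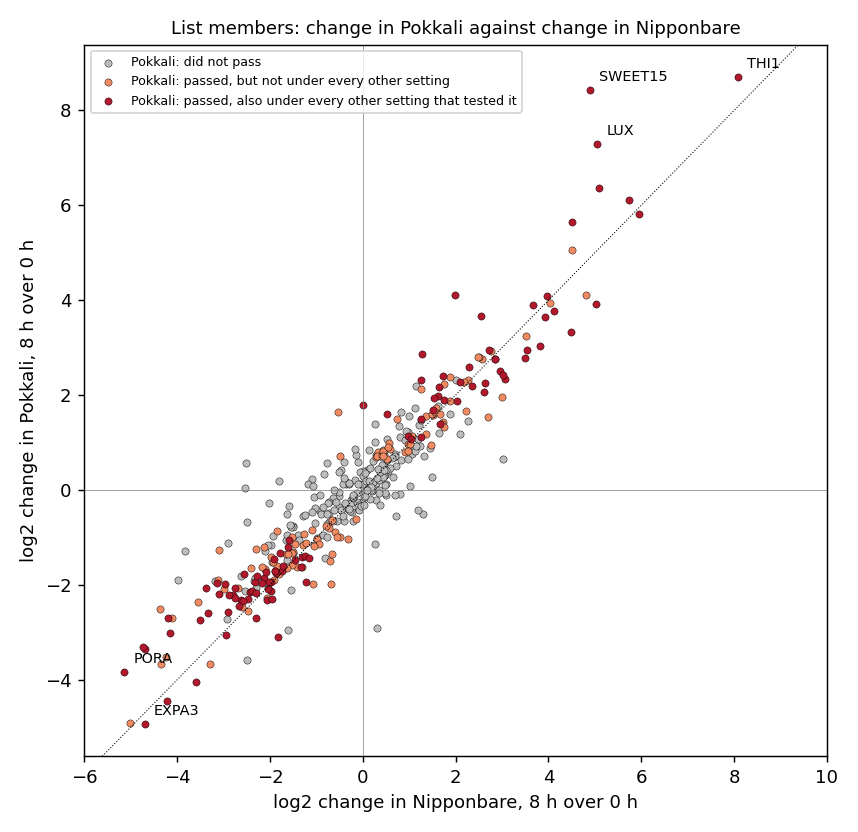
Log2 change (8 h over 0 h) in Pokkali on the y axis against that in Nipponbare on the x axis for the 415 measured list loci, coloured by the Pokkali call; the dotted line marks equal change. SWEET15, at 8.43 in Pokkali and 4.90 in Nipponbare, is the list member whose difference passed the test.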

How the data were processed

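RNA of whole seedlings was labelled with 1 dye and hybridised to a custom array, per the labels. The authors deposited Feature Extraction 10.7.1.1 tables. Their processed signal is an intensity on a linear scale, from which the software had removed background and spatial trends, per the file headers; no scaling between arrays had been applied. The deposited flag columns hold 0 or 1 for each spot. The array design rests on the IRGSP5 build, per the file headers.

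Control spots (1319) and outlier spots were left out. From each of the 61657 other spots, taken as log2 intensity, the 75th percentile of its array was subtracted, and spots of a probe were averaged. A probe was kept if 1 or more groups had it well above background on both of their arrays (47559 of 55078; for repeated probes, on more than 0.5 of their spots). Probes were averaged per locus, giving 45411 of 52795 loci. For 76 loci the fit drops an array without a value. A means model of the 4 groups was fitted in limma 3.58.1 under R 4.3.3 (4 residual and 2.36 prior degrees of freedom, prior SD 0.212), with two-sided tests and Benjamini-Hochberg adjustment over all loci. The script was tested on simulated data. Groups of 2 arrays allow no exact permutation p below 0.333, and their number limits the precision.

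All 8 arrays shared 1 slide and 1 scan, each group in positions of its own, so array position and group cannot be told apart. One 8 h Nipponbare sample has different replicate numbers in its title and description; the title was used. For bounds ("at least N-fold"), the values of a group that was not well above background were raised to a floor where they lay below it. The floor of an array was the lowest value of any probe well above background there, and values above the floor were kept. The files hold no mean signal column, so the normexp background correction (offset 50) used median signals.

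Lists and members were chosen with earlier results of these data known. Of the 431 list loci, 415 were tested. Genes named are, per list, up to 4 held calls with the largest change and up to 2 further members with the smallest p, all members of lists of 3 or fewer, the 2 largest held rises and falls, and members whose difference between lines passed. The reference gene table matched none of the array's identifiers.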

Additional observations from a re-analysis of the deposited data

Results flagged for a closer look

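The change of SWEET15 (LOC_Os02g30910), a sugar exporter gene, differed between the lines. Its log2 change was 8.43 in Pokkali and 4.90 in Nipponbare, a difference of 3.53 (limma adjusted p = 0.0285 for the difference itself). At 8 h it was higher in both Pokkali arrays (5.71 and 5.87) than in both Nipponbare arrays (2.60 and 3.14), and at 0 h the Pokkali arrays stood at -2.66 and -2.62 and the Nipponbare arrays at -2.17 and -1.88. The difference lay between 3.27 and 3.80 in the fits without one array, and its adjusted p ran from 0.0433 to 0.145 there. It did not pass without either Pokkali 8 h replicate (0.0994 without replicate 1, 0.145 without replicate 2), either Nipponbare 8 h replicate (0.0727 and 0.0604), Pokkali 0 h replicate 2 (0.0686) or Nipponbare 0 h replicate 2 (0.0697). The cause was not tested.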

How the results depend on the processing

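The Pokkali calls numbered between 8450 (Pokkali arrays alone) and 14392 (replicate block) under the settings that kept all arrays of the line, against 12298 in the fit as reported. Without one array they numbered 4761 to 12004. The 2 fits chosen after seeing the data, without 0 h replicate 1 or replicate 2 of both lines, gave 13322 and 9054. For Nipponbare, 11962 loci passed, and 4025 to 12260 without one array. The difference between lines passed at 134 loci, at 52 with no filter on dim probes, at 50 with probes well above background on all 8 arrays, at 30 with the replicate block, at 60 and at 1 without 0 h replicate 1 and replicate 2 of both lines, and at 0 to 181 without one array. Of 3786 held calls, 3716 also passed in the 2 added fits. Replicate numbers did not pair the 8 h with the 0 h samples of Pokkali, where the correlation of replicate 2 minus replicate 1 was 0.08. Same-numbered samples deviated together across the lines, with a correlation of 0.54 at 0 h and 0.22 at 8 h, the samples that the difference between lines compares. The remaining correlations were 0.06 to 0.11.

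Among the genes named by the stated rule 5 changed sign, none of which had passed. DREB1G, named after its values were seen and not counted there, changed sign too. Its log2 change was -3.33 without 0 h replicate 1 of both lines and 1.95 without 0 h replicate 2 of both lines. Without one array ABA8OX1 lay between -1.95 and 0.86 and ABA8OX3 between -1.35 and 0.82, each highest without Pokkali 0 h replicate 2, with the same value without that replicate of both lines. LOC_Os12g09000 lay between -0.26 and 0.24, GLUA3 between -0.73 and 0.19 and EEF1A between -0.26 and 0.051, each highest without Pokkali 0 h replicate 1, again with the same value without that replicate of both lines. Without Pokkali 8 h replicate 2, LOC_Os12g09000 was at 0.21 and EEF1A at 0.0054. The cause was not tested. A slide block could not be fitted with 1 slide, and the series value table equals the scanner values, so neither was run. The difference between lines could not be fitted with the arrays of one line alone. Signal over background limits 1034 tested loci, which were dark on all 4 Pokkali arrays.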
